A study of Mus musculus with 6 samples.

Results

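The genes described here encode the NF-κB transcription factor subunits (Nfkb1, Rela, Rel, Nfkb2 and Relb), the IκB kinase complex that releases them (Ikbkb, Chuk and Ikbkg) and a pair of their inhibitors (Nfkbia and Tnfaip3). They were taken by symbol from a deposited expression table, in which all 10 were present among 770 genes. The table describes primary tumours from a mouse model in which the carcinogen 4NQO gives rise to oral squamous cell carcinoma. It held 3 libraries from tumours treated with agonistic anti-CD40, an antibody that activates the receptor CD40, and 3 libraries from vehicle tumours of the same model. RNA had been extracted from formalin-fixed, paraffin-embedded specimens. The labels give no dose, timing or antibody clone and no age or strain background of the mice. The labels also do not state that the libraries came from separate animals. The p-values compare a difference with the spread between libraries within groups, and that spread may be partly technical.

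NF-κB proteins act as dimers. In the canonical pathway, receptors such as CD40, the TNF receptors and the Toll-like receptors activate a kinase complex made of IKKβ, IKKα and the scaffold NEMO, which marks the inhibitor IκBα for destruction, so that dimers of p50 with RelA or c-Rel enter the nucleus. In the non-canonical pathway, for which CD40 is a classical trigger, IKKα promotes the processing of p100 to p52, which then works with RelB. The genes for IκBα and for the ubiquitin-editing enzyme A20, Tnfaip3, are themselves induced by NF-κB and close a negative feedback loop. This regulation acts largely on proteins, and the data here are of transcripts.

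Promoter windows are shown for the genes of this group in which an NF-κB binding sequence was found, because feedback of NF-κB on its own inhibitors and subunits runs through such sequences. The degenerate κB consensus was searched on both strands, as GGG, a purine, any base, A or T, a pair of pyrimidines and CC. The windows run from 250 bases before to 50 bases after an annotated start and come from RefSeq, build GRCm38.p6. Of the 10 genes, 7 were matched by symbol, with 13 windows, and Nfkb1, Relb and Ikbkb were not among them. A match was present in at least 1 window of Tnfaip3, Rel, Nfkbia and Nfkb2, against 4.51% of all 32851 windows in the table and 64 of the 566 panel genes with a window (11.3%). The 5′ to 3′ sequences follow, with the matched bases in capitals.
Tnfaip3, chr10:19015361-19015660, minus strand: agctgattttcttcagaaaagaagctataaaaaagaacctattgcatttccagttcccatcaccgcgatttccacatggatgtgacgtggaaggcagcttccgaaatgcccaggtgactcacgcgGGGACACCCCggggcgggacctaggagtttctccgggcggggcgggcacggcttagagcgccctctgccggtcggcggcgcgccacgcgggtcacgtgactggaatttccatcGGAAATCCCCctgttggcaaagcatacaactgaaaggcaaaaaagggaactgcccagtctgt
Rel, chr11:23770920-23771219, minus strand: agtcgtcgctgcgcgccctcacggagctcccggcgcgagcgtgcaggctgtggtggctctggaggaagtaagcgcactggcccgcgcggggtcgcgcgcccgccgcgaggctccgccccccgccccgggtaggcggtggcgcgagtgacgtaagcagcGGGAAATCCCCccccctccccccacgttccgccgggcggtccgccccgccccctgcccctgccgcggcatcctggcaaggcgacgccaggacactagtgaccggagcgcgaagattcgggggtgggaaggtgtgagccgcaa
Nfkbia, chr12:55492598-55492897, minus strand: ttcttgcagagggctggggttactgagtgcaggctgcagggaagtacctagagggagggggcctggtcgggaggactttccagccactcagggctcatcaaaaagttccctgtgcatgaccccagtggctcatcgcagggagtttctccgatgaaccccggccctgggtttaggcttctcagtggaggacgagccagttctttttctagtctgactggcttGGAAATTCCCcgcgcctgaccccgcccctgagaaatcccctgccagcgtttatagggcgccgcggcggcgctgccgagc
Nfkb2, chr19:46304487-46304786, plus strand: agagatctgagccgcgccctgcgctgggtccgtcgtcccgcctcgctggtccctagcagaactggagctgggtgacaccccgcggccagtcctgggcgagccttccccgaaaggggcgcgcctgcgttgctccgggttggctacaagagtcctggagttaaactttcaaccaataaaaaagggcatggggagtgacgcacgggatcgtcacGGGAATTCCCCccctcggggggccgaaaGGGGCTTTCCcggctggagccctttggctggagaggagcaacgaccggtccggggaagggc
The run GGGAAATCCCC of Rel, 92 to 82 bases before the start, holds 3 overlapping matches on both strands, and the run GGGAATTCCCC of Nfkb2, at 39 to 29 bases before the start, likewise holds 3. The other Nfkb2 windows overlap each other and share the match GGGACTTTCC. In Tnfaip3 the match next to the start, GGAAATCCCC, reads as GGGGATTTCC on the opposite strand. A match is a description of these letters and does not show that a factor binds there.

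The recovered counts over the 770 genes summed to between 333400 and 497475 in the anti-CD40 libraries and to between 357258 and 578598 in the vehicle libraries. All 10 genes lay above background in all 6 libraries, as did 523 of the 770 genes, where the limit was set 2 SD over the mean of the 8 negative controls. The lowest count among the 10 genes was 60, for Tnfaip3 in anti-CD40 library 3, and the highest was 867, for Chuk. Limma with Benjamini-Hochberg adjustment called 0 of the 770 genes at an adjusted p of 0.05 (0%), with 25 genes at an unadjusted p under 0.05 (3.25%). It therefore called 0 of the 10 genes, which had adjusted p-values between 0.974 and 0.997 and 0 members at an unadjusted p under 0.05. Groups that did not overlap were seen for 0 of the 10 genes, against 10.3% of all genes. Values are log2 normalized counts, and differences are anti-CD40 minus vehicle on that log2 scale. Confidence intervals are per gene and not adjusted for the number of genes.

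Across the group, 6 genes had a higher and 4 a lower mean in anti-CD40 tumours, with a median difference of 0.034 beside 0.038 over all 770 genes. The departures from 0 were uneven. Tnfaip3 differed by −0.63 and Rel by −0.55, whereas the other 8 genes differed by between −0.17 and 0.21. Of the 523 genes above background in every library, 4.02% and 4.97% had a lower difference than Tnfaip3 and Rel. In either direction, 91.97% and 88.72% of them had a smaller absolute difference than Tnfaip3 and Rel. These ranks belong to the members with the largest departures from 0, picked with the values known, and carry no test. Most genes of the group were also steady between replicates. Their median within-group SD was 0.24, against 0.33 over those 523 genes, and that of Rela, 0.086, was larger than the SD of only 1.15% of them. The comparison was not matched for expression level, and each SD pools the spread within the anti-CD40 and within the vehicle libraries.

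**Figure D1:**
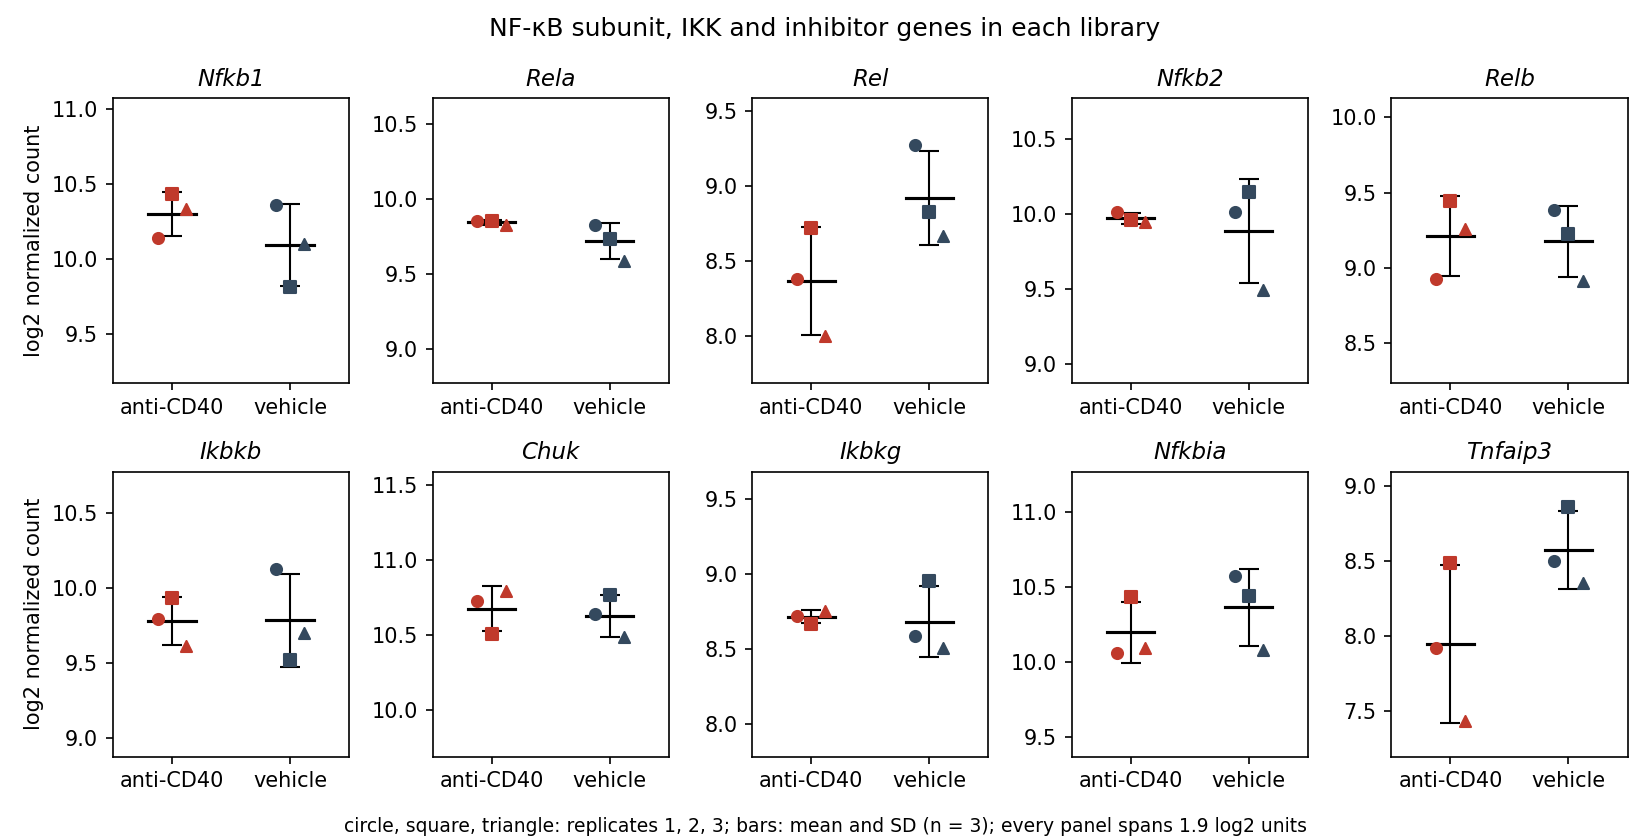
Log2 normalized counts of the 10 genes in each library, anti-CD40 on the left and vehicle on the right of each panel, with circle, square and triangle for replicates 1, 2 and 3 and bars for the mean and SD (n = 3 each). Rel and Tnfaip3 have lower means in anti-CD40 tumours (8.37 and 7.95, against 8.92 and 8.57 in vehicle tumours), and the groups of all 10 genes overlap.

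Among the subunits of the canonical pathway, Rela encodes p65, the main activating partner. Rela had 9.85, 9.86 and 9.83 in anti-CD40 libraries 1, 2 and 3, against 9.83, 9.73 and 9.59 in vehicle libraries 1, 2 and 3. Its groups touched at anti-CD40 3 and vehicle 1, and the other anti-CD40 libraries lay above every vehicle library. The difference was 0.13 (95% confidence interval −0.35 to 0.60, limma adjusted p = 0.974), and it was 0.064 without vehicle 3 and 0.021 after quantile normalization. Nfkb1 encodes p105, the precursor of p50. Nfkb1 had 10.14, 10.43 and 10.33 in anti-CD40 libraries, against 10.36, 9.81 and 10.10 in vehicle libraries. The difference of 0.21 (interval −0.34 to 0.76) was 0.071 without vehicle 2, the library with the lowest value, and 0.34 without vehicle 1, which ranked second of the 6.

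Rel encodes c-Rel, the subunit best known from lymphocytes and antigen-presenting cells. Rel had 8.38, 8.72 and 8.002 in anti-CD40 libraries, against 9.27, 8.83 and 8.67 in vehicle libraries. The highest anti-CD40 value, in library 2, lay above the lowest vehicle value, in library 3, and otherwise the anti-CD40 libraries lay below. Means were 8.37 ± 0.36 in anti-CD40 tumours and 8.92 ± 0.31 in vehicle tumours (SD, n = 3 each), a ratio of 0.68 on the linear scale. The difference of −0.55 (SE 0.28, interval −1.22 to 0.11) had an unadjusted p of 0.089 and an adjusted p of 0.974 with limma. With 1 library left out it ranged from −0.73 to −0.37. The lowest value rested on 90 counts, with an exact Poisson interval of 7.69 to 8.29 log2, and the highest, in vehicle 1, on 335 counts, with 9.12 to 9.43. These intervals cover counting error only and are narrower than the distance between those libraries.

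The subunits of the non-canonical pathway differed little in the mean. Nfkb2, which encodes p100 and p52, had 10.01, 9.96 and 9.94 in anti-CD40 libraries, against 10.01, 10.15 and 9.49 in vehicle libraries. The anti-CD40 values fell inside the range of the vehicle values, whose spread came mainly from vehicle 3. The difference of 0.086 (interval −0.49 to 0.66) was −0.11 without vehicle 3. Relb had 8.92, 9.45 and 9.26 in anti-CD40 libraries, against 9.38, 9.23 and 8.91 in vehicle libraries. Its groups spanned nearly the same range, with a difference of 0.035 (interval −0.55 to 0.62) that was −0.095 without vehicle 3 and −0.084 without anti-CD40 2. Vehicle 3 was the lowest library for 5 of the 10 genes, as it was for 43.8% of the 523 genes above background throughout.

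For each of the 3 kinase genes the group means lay within 0.05 of each other. Ikbkb, which encodes IKKβ, had 9.80, 9.94 and 9.62 in anti-CD40 libraries, against 10.13, 9.52 and 9.70 in vehicle libraries, a difference of −0.0027 (interval −0.58 to 0.57) that was 0.17 without vehicle 1 and −0.13 without vehicle 2. Chuk, which encodes IKKα, had 10.72, 10.50 and 10.79 in anti-CD40 libraries, against 10.64, 10.76 and 10.48 in vehicle libraries, a difference of 0.044 (interval −0.46 to 0.55) that was −0.028 without vehicle 3 and −0.015 without anti-CD40 3. Ikbkg, which encodes the scaffold NEMO, had 8.73, 8.67 and 8.76 in anti-CD40 libraries, against 8.59, 8.96 and 8.51 in vehicle libraries, a difference of 0.032 (interval −0.49 to 0.55) that was −0.054 without vehicle 3 and −0.017 without vehicle 1. With 3 libraries per group, differences of a size inside these intervals remain possible. The intervals are not a limit of detection. The chemokine gene Ccl20, at −1.35, was also not called (limma adjusted p = 0.974).

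Both inhibitor genes had lower means in anti-CD40 tumours. Nfkbia, which encodes IκBα, had 10.06, 10.44 and 10.10 in anti-CD40 libraries, against 10.58, 10.44 and 10.08 in vehicle libraries. Vehicle 1 and, narrowly, vehicle 2 lay above every anti-CD40 library, while vehicle 3 lay at the level of anti-CD40 1 and 3, and the difference of −0.17 (interval −0.73 to 0.40) was −0.063 without vehicle 1 and −0.31 without vehicle 3. Tnfaip3, which encodes A20, had 7.92, 8.49 and 7.43 in anti-CD40 libraries, against 8.50, 8.86 and 8.36 in vehicle libraries. As for Rel, anti-CD40 2 reached into the vehicle range while anti-CD40 1 and 3 lay below every vehicle library. Means were 7.95 ± 0.53 in anti-CD40 tumours and 8.57 ± 0.26 in vehicle tumours (SD, n = 3 each), a ratio of 0.65. The difference of −0.63 (SE 0.32, interval −1.37 to 0.12) had an unadjusted p of 0.088 and an adjusted p of 0.974 with limma. It was −0.37 without anti-CD40 3, whose value rested on 60 counts (Poisson interval 7.05 to 7.79 log2), and −0.90 without anti-CD40 2.

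**Figure D2:**
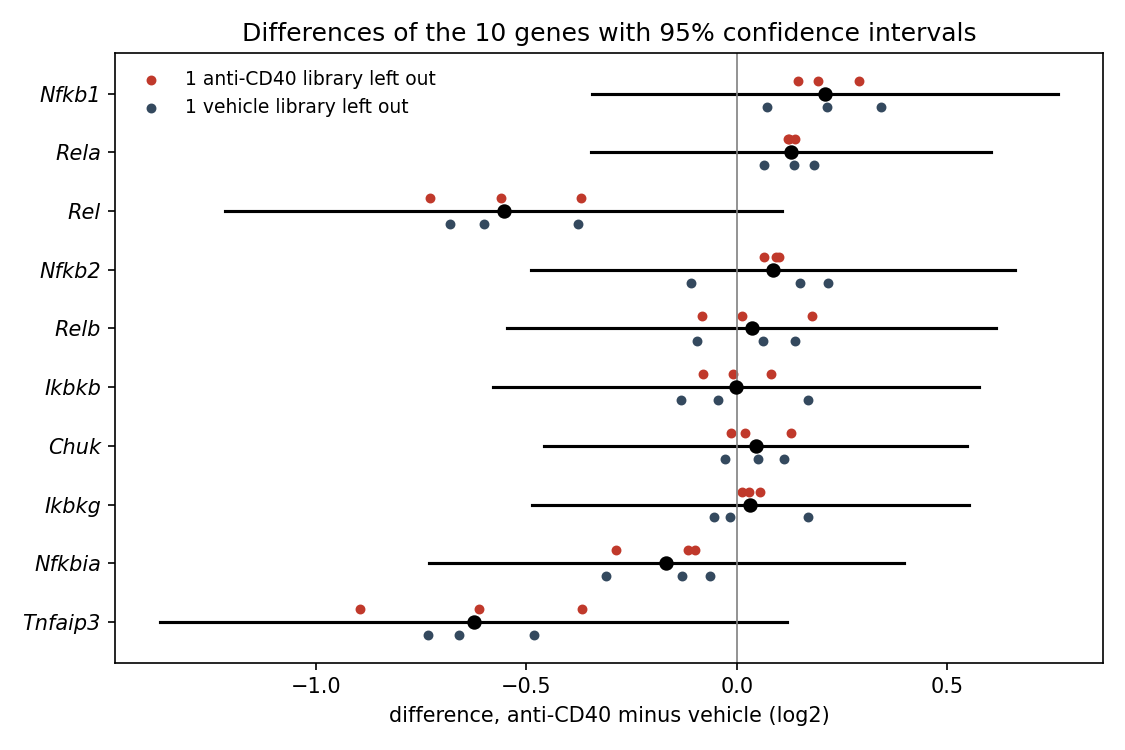
Differences between anti-CD40 and vehicle tumours (log2, black points) with limma's 95% confidence intervals (lines) for the 10 genes, and the differences after leaving out 1 anti-CD40 library (red) or 1 vehicle library (blue). Every interval includes 0, and the differences of Tnfaip3 and Rel remain below 0 with any 1 library left out, at −0.90 to −0.37 and −0.73 to −0.37.

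Because a factor that scales a whole library nearly cancels in the ratio of a pair of genes, each pair of the 10 genes was also compared within libraries. These ratios were examined with the values of the genes known and carry no test. Of 45 pairs, 10 had groups that did not overlap (22.2%), against 12.1% of all 136503 pairs of the genes above background throughout. With 1 library left out, which makes separation easier, the count was 22 without anti-CD40 2 (48.9%, against 32.6% of all pairs), 15 without vehicle 2 (33.3%, against 25.9%) and 15 without vehicle 3 (33.3%, against 23.2%). Of the 10 pairs, 9 contained Rel or Tnfaip3, so they are not independent of each other. The log2 ratio of Rela over Rel was 1.47, 1.14 and 1.82 in anti-CD40 libraries, against 0.55, 0.91 and 0.92 in vehicle libraries. Every anti-CD40 library thus held more Rela relative to Rel than any vehicle library, by 0.68 in the mean. Nfkb1 over Rel was 1.76, 1.71 and 2.33 in anti-CD40 libraries, against 1.08, 0.99 and 1.43 in vehicle libraries, a difference of 0.76. Rela over Tnfaip3 was 1.93, 1.37 and 2.40 in anti-CD40 libraries, against 1.33, 0.87 and 1.24 in vehicle libraries, a difference of 0.75. The remaining pair, Relb over Nfkbia, was −1.14, −0.99 and −0.84 in anti-CD40 libraries, against −1.20, −1.22 and −1.17 in vehicle libraries, a difference of 0.20. Rel over Tnfaip3 was not among the 10 pairs. Against the 522 other genes above background throughout, the ratio to Rel did not overlap for 29.9%, and the ratio to Tnfaip3 for 22.4%, whereas for the other 8 genes the share was between 5.75% and 12.6%. These shares come from the same values as the differences of Rel and Tnfaip3 and are not separate evidence.

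**Figure D3:**
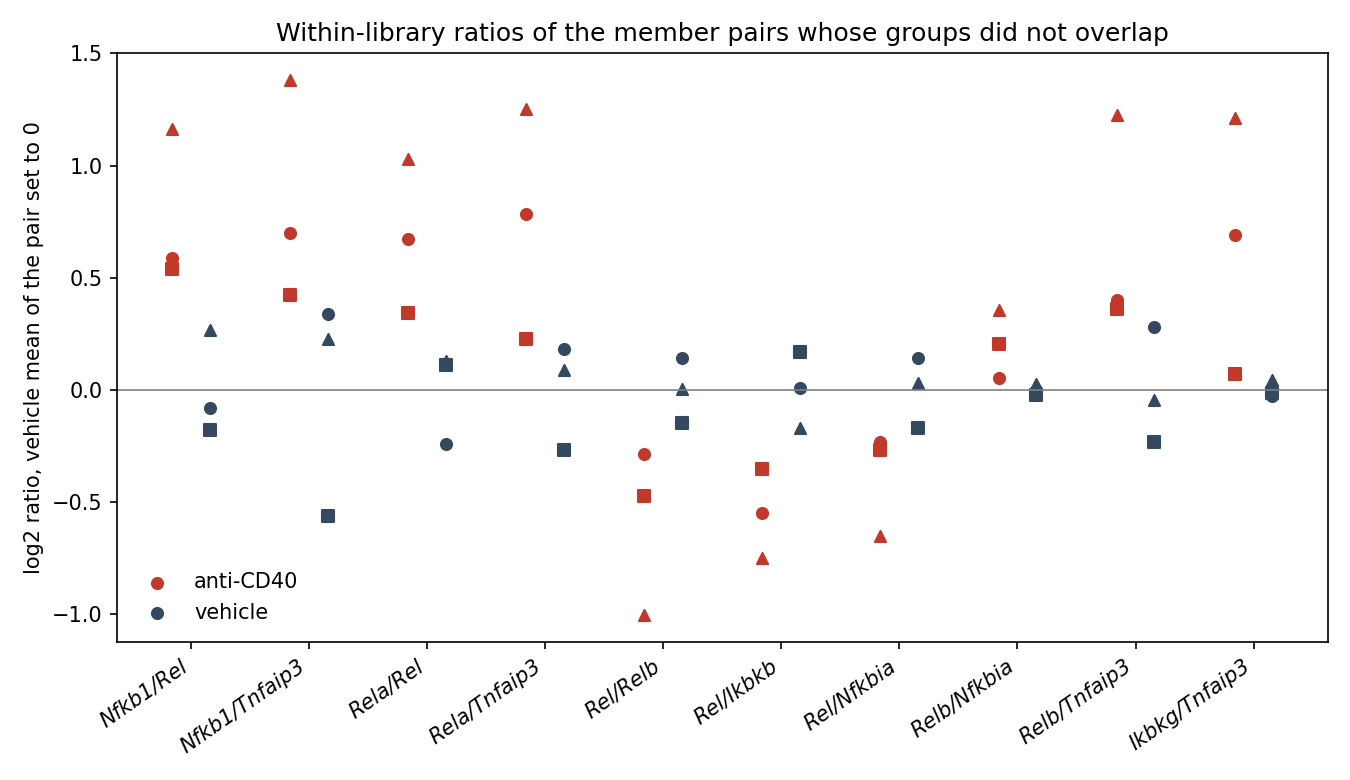
Within-library log2 ratios of the 10 gene pairs whose groups did not overlap, each shifted so that its vehicle mean is 0, with anti-CD40 libraries in red to the left and vehicle libraries in blue to the right, and circle, square and triangle for replicates 1, 2 and 3. All pairs except Relb/Nfkbia contain Rel or Tnfaip3, and anti-CD40 3 lies farthest from the vehicle libraries in each pair.

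The genes upstream of the kinases were measured for 32 of 36 listed receptors, adaptors and kinases. Limma called 0 of the 32, with 21 higher and 11 lower in the mean and a median difference of 0.098, beside 0.038 over all genes. That median was −0.0034 without vehicle 3, 0.014 without anti-CD40 2, 0.034 without vehicle 2 and 0.040 after quantile normalization. Groups did not overlap for 9.375% of the 32, with 2 higher and 1 lower in anti-CD40 tumours, against 10.3% of all genes. Cd40, which encodes the receptor bound by the antibody, had 6.92, 7.09 and 6.16 in anti-CD40 libraries, against 7.36, 7.05 and 6.53 in vehicle libraries, and was above background in 5 of 6. Its groups overlapped, and the difference of −0.25 was 0.028 without anti-CD40 3. The gene of lowest p in this list was Ikbke, which encodes the IKK-related kinase IKKε. Ikbke had 7.89, 8.43 and 8.11 in anti-CD40 libraries, against 8.97, 8.42 and 8.59 in vehicle libraries, a difference of −0.52 (SE 0.26). Next came Ticam1, which encodes the adaptor TRIF of TLR3 and TLR4 signalling, differing by 0.39 (SE 0.27), by 0.24 with vehicle 3 left out and by 0.60 with vehicle 2 left out. Both had an adjusted p of 0.974 with limma, and their groups overlapped.

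Of 15 other IκB proteins and negative regulators listed, those of the IκB family (Nfkbib, Nfkbie, Nfkbid, Nfkbiz and Bcl3) were not measured. The 6 measured were listed as negative regulators, and limma called 0 of them. Of these, 4 were higher and 2 lower in the mean. Groups did not overlap for 3 of the 6, against 10.3% of all genes in either direction. All 3 were higher in anti-CD40 tumours, as 6.75% of all genes were. Irak3, which encodes an inhibitor of Toll-like receptor and interleukin 1 receptor signalling, had 8.33, 8.55 and 8.58 in anti-CD40 libraries, against 7.95, 7.93 and 7.72 in vehicle libraries. Every anti-CD40 library lay above every vehicle library, by 0.62 in the mean (interval 0.13 to 1.12, unadjusted p = 0.020, adjusted p = 0.974 with limma). Sigirr, which encodes an inhibitory member of the interleukin 1 receptor family, had 8.15, 7.74 and 7.67 in anti-CD40 libraries, against 7.39, 7.53 and 7.27 in vehicle libraries, a difference of 0.46 (SE 0.23). The third was Cyld, a deubiquitinase gene, at 9.06, 8.93 and 9.06 in anti-CD40 libraries, against 8.79, 8.92 and 8.64 in vehicle libraries, and it is named because it completes this count. In the same list Nlrc5, a regulator gene of MHC class I expression, differed by −0.58 with overlapping groups, Tollip by −0.081 and Tank by 0.097. These 3 were named after their values were seen.

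Textbook target genes of canonical NF-κB signalling were measured for 32 of 36 listed genes, and 18 of the 32 lay above background in all libraries. Limma called 0 of the 32. In the mean 13 were higher and 19 lower, with a median difference of −0.088. Groups did not overlap for 4 of the 32 (12.5%), against 10.3% of all genes in either direction. All 4 were lower in anti-CD40 tumours, as 3.51% of all genes were. They include Ccl4, named after its values were seen, which lay above background in only 2 of 6 libraries. Ccl20, which encodes a chemokine for Ccr6-bearing cells, had 6.15, 7.47 and 6.27 in anti-CD40 libraries, against 8.18, 8.11 and 7.65 in vehicle libraries. The difference of −1.35 (interval −2.26 to −0.44, adjusted p = 0.974 with limma) was between −1.77 and −1.11 with 1 library left out. Ccl22, a chemokine gene of dendritic cells and macrophages, had 7.48, 7.99 and 7.38 in anti-CD40 libraries, against 8.33, 8.04 and 8.25 in vehicle libraries, a difference of −0.59. In both genes anti-CD40 2 was the highest anti-CD40 library. The list's median was 0.055 without anti-CD40 1, 0.018 without vehicle 2 and −0.33 without vehicle 3.

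Of 7 listed targets of the non-canonical pathway in lymphoid stroma, 6 were measured, with 3 higher, 3 lower and 0 called by limma. Groups did not overlap for 33.3% of the 6, with 1 higher and 1 lower in anti-CD40 tumours, against 10.3% of all genes. The lower gene was Tnfsf13b, at −0.39, named after its values were seen and above background in only 2 of 6 libraries. The list's median was 0.00069, and 0.21 over its 4 genes above background in at least 3 libraries. Cxcl13, which encodes a B cell attracting chemokine, had 8.17, 8.60 and 10.60 in anti-CD40 libraries, against 7.87, 7.12 and 8.11 in vehicle libraries. Its groups did not overlap, but the difference of 1.42 was 0.69 without anti-CD40 3. Cxcl12, a chemokine gene of stromal cells, differed by 0.23 with overlapping groups, and by −0.13 without vehicle 3.

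**Figure D4:**
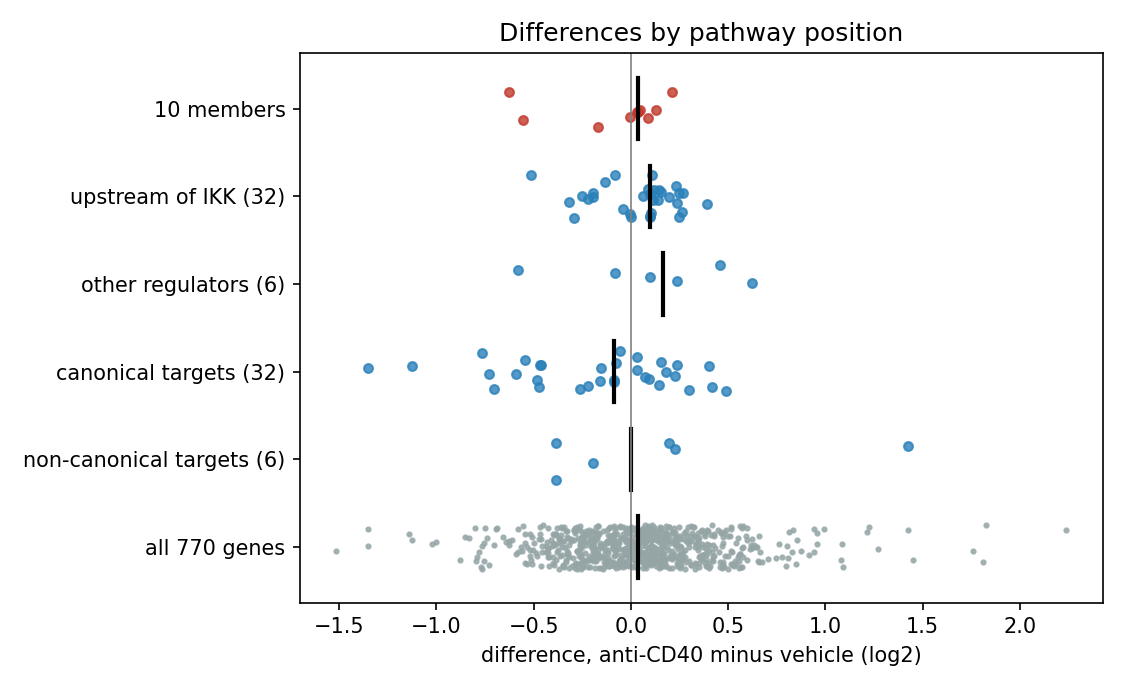
Differences between anti-CD40 and vehicle tumours (log2) for the 10 genes, for 4 lists of pathway genes and for all 770 genes, 1 point per gene with the median as a black bar. Medians lie at 0.034 for the 10 genes, 0.098 upstream of the kinases, 0.17 for other regulators, −0.088 for canonical targets, 0.00069 for non-canonical targets and 0.038 for all genes.

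The genes whose pattern over the 6 libraries was most like those of Tnfaip3, Rel and Nfkb1 were sought among the 513 other genes above background throughout. This likeness is a description over 6 libraries of 2 groups, with the best of many genes picked. For Tnfaip3 they were Spn, which encodes the leukocyte surface protein CD43 (Pearson r = 0.96), and Socs1, a feedback inhibitor gene of cytokine signalling (0.91). Spn ranked the 6 libraries in the same order as Tnfaip3. For Rel they were Anp32b (r = 0.92), the interferon-induced transcription factor gene Irf1 (0.90) and Ccl22 (0.89). For Nfkb1 they were Jak2, a cytokine receptor kinase gene (0.96), Tank, which encodes a TRAF-binding adaptor (0.93), and Myd88, which encodes the adaptor of most Toll-like receptors (0.93).

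Ptprc and the T cell and dendritic cell markers varied across libraries in a way similar to Rel and Tnfaip3, whereas B cell, macrophage and granulocyte markers did not follow that order. Ptprc, which encodes the pan-leukocyte protein CD45, had 8.49, 9.34 and 8.48 in anti-CD40 libraries, against 9.37, 9.26 and 8.54 in vehicle libraries. It was high in anti-CD40 2, vehicle 1 and vehicle 2, the 3 libraries in which Rel and Tnfaip3 were also highest, and low in the others. The likeness was weaker in vehicle 3, where Ptprc was close to its level in anti-CD40 1 and 3. Rel and Tnfaip3 lay above both of those libraries there. Of 8 T cell markers, all 8 had lower means in anti-CD40 tumours, 4 were above background in all libraries and Cd2 in none. Their summed normalised counts ranged from 533 to 1001 in anti-CD40 libraries and from 842 to 1149 in vehicle libraries. Of 4 measured dendritic cell markers, all 4 had lower means, 0 were above background in all libraries and Xcr1 was above it in none, with sums of 199 to 354 in anti-CD40 libraries and 258 to 422 in vehicle libraries. Of 7 macrophage markers, 6 had higher means, with sums of 3671 to 4186 in anti-CD40 libraries and 2376 to 4044 in vehicle libraries. Of 7 B cell markers 3 were higher and 4 lower, with sums of 218 to 574 in anti-CD40 libraries and 228 to 1073 in vehicle libraries, and Cd79a and Cd22 were above background in no library. Of 9 granulocyte and granule markers 8 had higher means, by 0.78 over the list, the largest mean difference of the 9 marker lists, and 3 were above background in all libraries. Their sums covered nearly the same range, 28757 to 151501 in anti-CD40 libraries and 28824 to 147396 in vehicle libraries. All 6 fibroblast markers had higher means, by 0.21 over the list, with sums of 28960 to 42099 in anti-CD40 libraries and 20487 to 36618 in vehicle libraries. Of 5 endothelial markers 4 had higher means, by 0.22 over the list, with sums of 4416 to 6954 in anti-CD40 libraries and 3897 to 6122 in vehicle libraries.

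Ptprc itself differed by −0.29. As a ratio to Ptprc within libraries, Rel differed by −0.27 and Tnfaip3 by −0.34, with overlapping groups. The part of leukocyte content in the differences of Rel and Tnfaip3 was not tested. In RNA from whole tumours, fewer cells that carry a transcript and less transcript per cell cannot be told apart. The tumours expressed epithelial genes, with Epcam, Cdh1 and Egfr above background in all libraries and Muc1 in 5. The summed epithelial markers ranged from 6768 to 7833 in anti-CD40 libraries and from 8359 to 9025 in vehicle libraries. Of these 4 markers 2 were higher and 2 lower, and the mean of their log2 values differed by −0.088 and overlapped, at 9.82 to 10.20 in anti-CD40 libraries and 9.89 to 10.25 in vehicle libraries. Their part in the differences above was not tested.

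**Figure D5:**
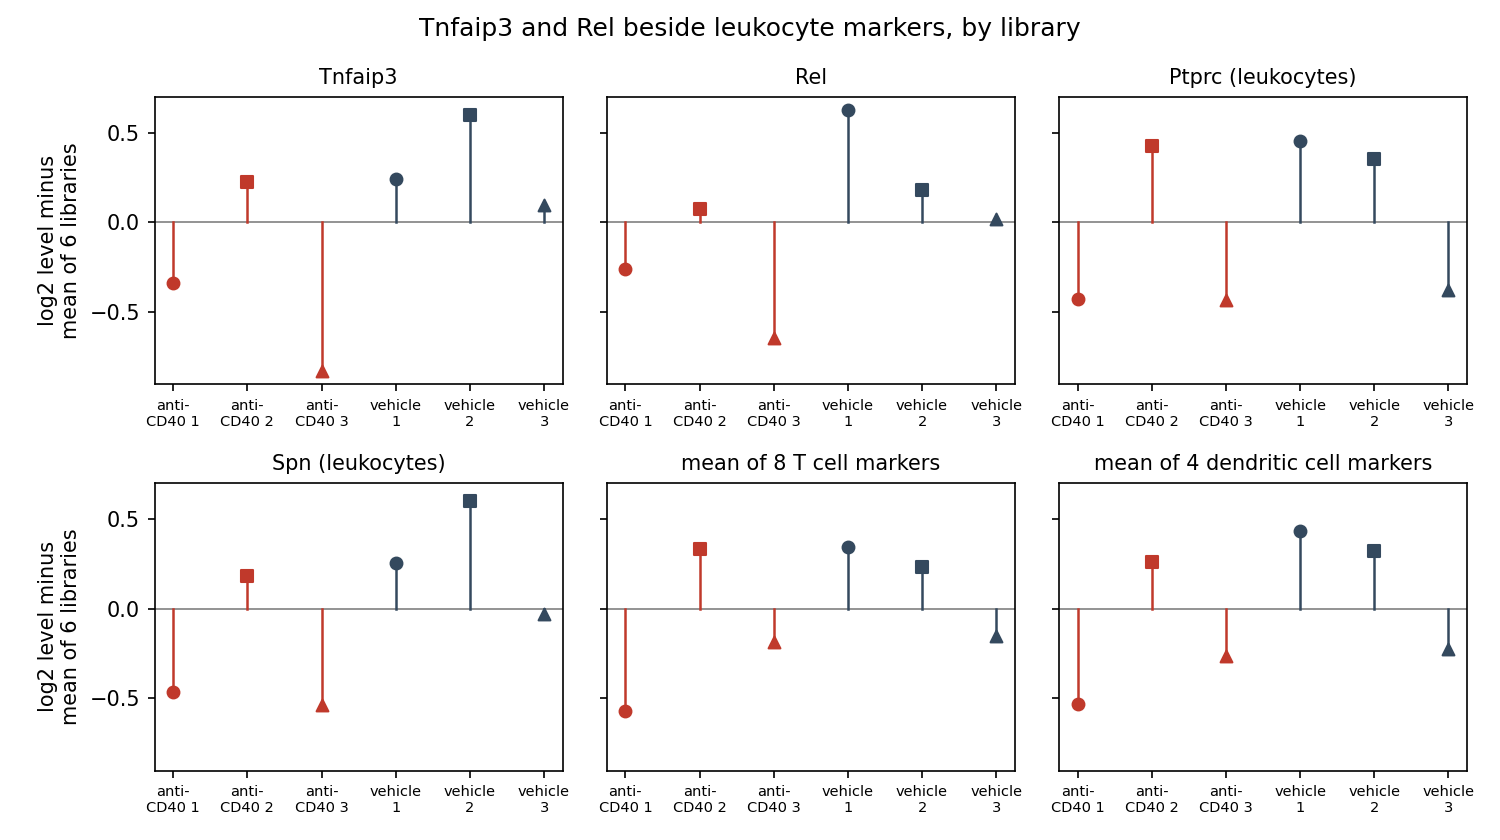
Levels of Tnfaip3, Rel, Ptprc and Spn and mean levels of the T cell and dendritic cell markers in each library (log2, minus the mean of the 6 libraries), with anti-CD40 libraries in red on the left and vehicle libraries in blue on the right. In all 6 panels anti-CD40 2, vehicle 1 and vehicle 2 lie above the mean and anti-CD40 1 and 3 below it. Vehicle 3 lies above the mean for Tnfaip3 and Rel, but below it for Ptprc and the T cell and dendritic cell markers.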

How the data were processed

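The deposited table holds log2 normalized counts, as the authors named it, in 784 rows, of which 770 were genes, 6 positive and 8 negative controls by name. Platform, software and normalization were not stated in any label or header. Each value proved to be the log2 of a library factor (1.72 to 3.28) multiplied by a whole count, with an offset of 4.55 added, with all 4704 values whole within 0.05 of a count. The offset slightly understates differences of low genes. Background was the negative control mean plus 2 SD in counts.

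All 770 genes were fitted with limma 3.58.1 in R 4.3.3 (lmFit, then eBayes with neither trend nor robust setting) on the authors' log2 values, two-sided, with Benjamini-Hochberg adjustment over all genes at 0.05. The fit had 4 residual degrees of freedom. The fit was also run on simulated data with independent noise and known changes. That run lacked shifts of whole libraries and does not show how well the fit suits these libraries. Figures used Python 3.11.15 and matplotlib 3.10.9. The 10 genes, the lists and the rules for named genes were chosen with earlier results of these data known. Named besides the 10 genes were Cd40, in each list the 2 genes of lowest p above background in at least 3 libraries, and the 3 genes most like each of the 3 members of lowest p, of which 1 is not reported here. Alternatives were limma-voom on the recovered counts, other variance models, scalings, offset and filter, a replicate block and leaving out each library.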

Additional observations from a re-analysis of the deposited data

How the results depend on the processing

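Limma called 0 genes under each of the 15 alternatives, including limma-voom, with 13 to 52 genes at an unadjusted p under 0.05 beside 25 (52 after quantile normalization, 13 without anti-CD40 1, 49 without anti-CD40 2, 47 without vehicle 2 and 43 without vehicle 3). The differences of Nfkb1, Rela, Rel, Nfkbia and Tnfaip3 kept their direction under all 15. The intensity trend, the robust setting, the background filter and the replicate block cannot change a difference, only its p-value, so they do not test the direction. Unadjusted limma p-values went down to 0.048 for Rel and 0.022 for Tnfaip3, with adjusted p-values of at least 0.66 and 0.63. Near 0, the differences of the other genes among the 10 turned. Quantile normalization gave −0.019 for Nfkb2, −0.021 for Relb and −0.047 for Chuk, and centring on 20 housekeeping genes, chosen after seeing the data, gave 0.018 for Ikbkb. With 1 library left out, Nfkb2 ranged from −0.11 to 0.22, Relb from −0.095 to 0.18, Ikbkb from −0.13 to 0.17, Chuk from −0.028 to 0.13 and Ikbkg from −0.054 to 0.17. The median of the non-canonical targets ranged from −0.29 to 0.37, with the upper value without vehicle 1. The cause was not tested. With the replicate block, 0 genes were called and 32 had an unadjusted p under 0.05. Deviations of same-numbered libraries from their group means correlated at −0.43, 0.069 and 0.28 for numbers 1, 2 and 3. With groups of 3, these correlations cannot show whether the numbers pair the libraries. The count of gene pairs with separate ratios was 10 with an offset of 1, 8 after quantile normalization and 10 to 22 with 1 library left out, the highest without anti-CD40 2, where fewer libraries also make separation easier. These ratio alternatives were chosen after seeing the data. The 10 genes rested on 60 to 867 counts, and precision is limited by the 3 libraries per group.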
